A study of Homo sapiens with 6 samples.

Results

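The Jumonji and TET enzymes are oxygen-dependent enzymes that remove methyl groups from histones, hydroxylate proteins or RNA, or oxidise methylated cytosine in DNA. Their messenger RNAs were measured in SUM1315 breast cancer cells after 24 h in 1% oxygen (hypoxia) and in 21% oxygen (normoxia). The group holds 30 genes, listed by name, out of 26409 genes with signal. The rule for the list uses no measured value, but the list was drawn up with earlier results of these data known. It comprises 17 histone demethylases of the KDM2 to KDM7 subfamilies, 9 further Jumonji (JmjC) proteins that act on proteins or transfer RNA or belong to that branch, the inactive Jumonji protein JARID2, and the methylcytosine dioxygenases TET1, TET2 and TET3. The value of a gene is the sum over its transcripts of RPKM, a read count scaled by transcript length and library depth, so levels of different genes are compared per length.

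SUM1315 is an established line labelled as triple-negative breast cancer from mammary tissue, and its genotype is labelled WT in both groups. The 3 hypoxia samples came from cells kept in a sealed chamber at 1% oxygen and the 3 normoxia samples from cells at 21% oxygen, all for 24 h in medium with serum, insulin and EGF. The series set out to study ribosome and ribosomal RNA production in low oxygen. Nothing in the labels says whether the 3 samples of a group were separate cultures, so p-values measure only the spread between these samples. The line is a single cell line grown alone, without the tissue around a tumour.

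Enzymes of this kind hold iron at their active site and use molecular oxygen and 2-oxoglutarate, so a lack of oxygen can slow them directly. Some of their genes, KDM3A and KDM4B among them, are also known targets of hypoxia-inducible factors (HIF), the transcription factors that accumulate in low oxygen. Only messenger RNA was measured here, and neither enzyme activity nor histone or DNA methylation.

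Libraries held 44.0 to 50.6 M reads in hypoxia and 50.4 to 50.9 M in normoxia, as recovered from the smallest steps of the values. A first principal component with 71.0% of the variance separated the groups, and hypoxic libraries differed more among themselves than normoxic ones. Of 7 epithelial and basal breast markers, among them EPCAM, CDH1 and KRT8, none exceeded 1 RPKM, and their sum was 0.112 to 0.226 RPKM in hypoxia and 0.0860 to 0.227 RPKM in normoxia. All 4 mesenchymal markers, VIM among them, exceeded 1 RPKM, and their sum was 6316 to 7449 RPKM in hypoxia and 4753 to 4913 RPKM in normoxia. Of the leukocyte markers only CD68 did, with the list summing to 73.6 to 80.8 RPKM in hypoxia against 45.8 to 48.3 RPKM in normoxia and CD3E and MS4A1 listed with no value above 0, and no endothelial or adipocyte marker did. The part of these markers in any result was not tested. Of the receptors that define the triple-negative label, PGR had no value above 0, and ESR1 and ERBB2 together had 20.3 to 23.7 RPKM in hypoxia and 21.2 to 21.9 RPKM in normoxia, of which ERBB2 was the member above 1 RPKM. In bulk RNA, fewer cells of a type and less RNA per cell cannot be told apart.

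Promoter sequences of the genes that carry the main differences come first, since HIF binds the core motif ACGTG or GCGTG. Each runs from 250 bases before to 50 bases after a RefSeq transcript start on GRCh38.p14, is written 5′ to 3′ on the strand of the gene, and has the core motif of either strand in capitals (CACGT and CACGC are its reverse complements, and CACGTG holds it on both strands). KDM3A and KDM3B, and KDM4B and KDM4A, are pairs of paralogues whose messages moved in opposite directions, and the KDM2B promoter is the one of its full-length transcript. The HSPBAP1 promoter, of a gene that fell, held the most core motifs of the 42 member promoters found when CACGTG was counted on both strands. With each CACGTG counted once, the KDM6A promoter held as many. The KDM3A window is that of the start of KDM3A-202, which is not the most abundant KDM3A transcript. The intervals are chr2:86441211-86441510 (plus strand) for KDM3A, chr5:138352435-138352734 (plus) for KDM3B, chr19:4968863-4969162 (plus) for KDM4B, chr1:43649899-43650198 (plus) for KDM4A, chr12:121580974-121581273 (minus) for KDM2B-202 and chr3:122793782-122794081 (minus) for HSPBAP1.
KDM3A: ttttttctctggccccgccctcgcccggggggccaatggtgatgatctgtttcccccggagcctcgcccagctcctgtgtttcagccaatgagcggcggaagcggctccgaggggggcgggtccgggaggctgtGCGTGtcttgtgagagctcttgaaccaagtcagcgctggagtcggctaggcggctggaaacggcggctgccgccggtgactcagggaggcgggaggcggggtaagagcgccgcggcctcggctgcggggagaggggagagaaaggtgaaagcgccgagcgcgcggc
KDM3B: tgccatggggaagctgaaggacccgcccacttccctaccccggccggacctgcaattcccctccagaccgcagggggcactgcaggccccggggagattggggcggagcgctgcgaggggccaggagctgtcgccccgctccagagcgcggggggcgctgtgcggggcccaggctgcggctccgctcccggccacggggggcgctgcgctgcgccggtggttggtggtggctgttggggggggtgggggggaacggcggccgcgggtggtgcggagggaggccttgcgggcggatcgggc
KDM4B: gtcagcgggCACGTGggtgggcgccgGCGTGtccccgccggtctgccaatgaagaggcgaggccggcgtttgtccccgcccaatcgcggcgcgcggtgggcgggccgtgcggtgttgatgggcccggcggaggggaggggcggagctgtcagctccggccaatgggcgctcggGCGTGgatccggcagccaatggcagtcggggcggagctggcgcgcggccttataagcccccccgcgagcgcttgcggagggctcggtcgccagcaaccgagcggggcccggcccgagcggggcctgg
KDM4A: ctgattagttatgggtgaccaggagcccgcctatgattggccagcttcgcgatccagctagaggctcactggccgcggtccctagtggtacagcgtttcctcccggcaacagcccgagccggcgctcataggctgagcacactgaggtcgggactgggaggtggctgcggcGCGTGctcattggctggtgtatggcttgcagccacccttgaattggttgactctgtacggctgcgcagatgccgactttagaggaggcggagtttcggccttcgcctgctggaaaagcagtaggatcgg
KDM2B-202 start: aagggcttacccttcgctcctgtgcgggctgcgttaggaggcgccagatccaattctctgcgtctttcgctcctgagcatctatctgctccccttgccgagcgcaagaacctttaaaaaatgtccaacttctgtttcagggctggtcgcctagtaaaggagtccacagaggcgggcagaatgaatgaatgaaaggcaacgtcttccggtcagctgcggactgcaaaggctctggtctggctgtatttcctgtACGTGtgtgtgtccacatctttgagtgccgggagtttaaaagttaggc
HSPBAP1: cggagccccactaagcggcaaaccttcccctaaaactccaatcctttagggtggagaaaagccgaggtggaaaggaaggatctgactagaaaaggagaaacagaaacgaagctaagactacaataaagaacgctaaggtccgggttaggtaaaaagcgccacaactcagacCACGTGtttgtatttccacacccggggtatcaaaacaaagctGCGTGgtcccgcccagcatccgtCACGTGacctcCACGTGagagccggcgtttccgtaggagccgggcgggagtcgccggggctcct
With the start base counted as 1, the KDM3A window held GCGTG from position -116, and the KDM4A window held GCGTG from position -79. The KDM4B window held CACGTG from position -241 and GCGTG from positions -224 and -77. The KDM2B-202 window held ACGTG from position 3, and the KDM3B window held neither motif on either strand. The HSPBAP1 window held CACGTG from positions -79, -14 and -3 and GCGTG from position -37. RefSeq promoters were found for 27 of the 30 genes (all but JMJD6, RIOX1 and RIOX2), 42 promoters in all. Of these, 64.3% held ACGTG or GCGTG on either strand, against 48.4% of all 35116 promoters of the same length. For ACGTG alone the shares were 26.2% and 21.4%, and for GCGTG alone 52.4% and 36.5%. Some member windows overlap, as for KDM3A, and the comparison was not matched for GC content. A match is a description of the letters and not a binding site.

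Messages of the 30 genes spanned from TET1, at 0.0868 RPKM in hypoxia and 0.0505 RPKM in normoxia, to JMJD6, at 39.7 RPKM in hypoxia and 34.3 RPKM in normoxia. KDM5C had rank 2 in both groups, at 32.5 RPKM in hypoxia and 33.4 RPKM in normoxia. KDM3A had rank 3 in hypoxia, against rank 10 in normoxia, and RIOX2 had rank 6 in hypoxia, against rank 3 in normoxia. The sum over the 30 genes was 305, 290 and 307 RPKM in the hypoxic libraries and 298, 296 and 296 RPKM in the normoxic libraries, so the groups overlapped.

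**Figure D1:**
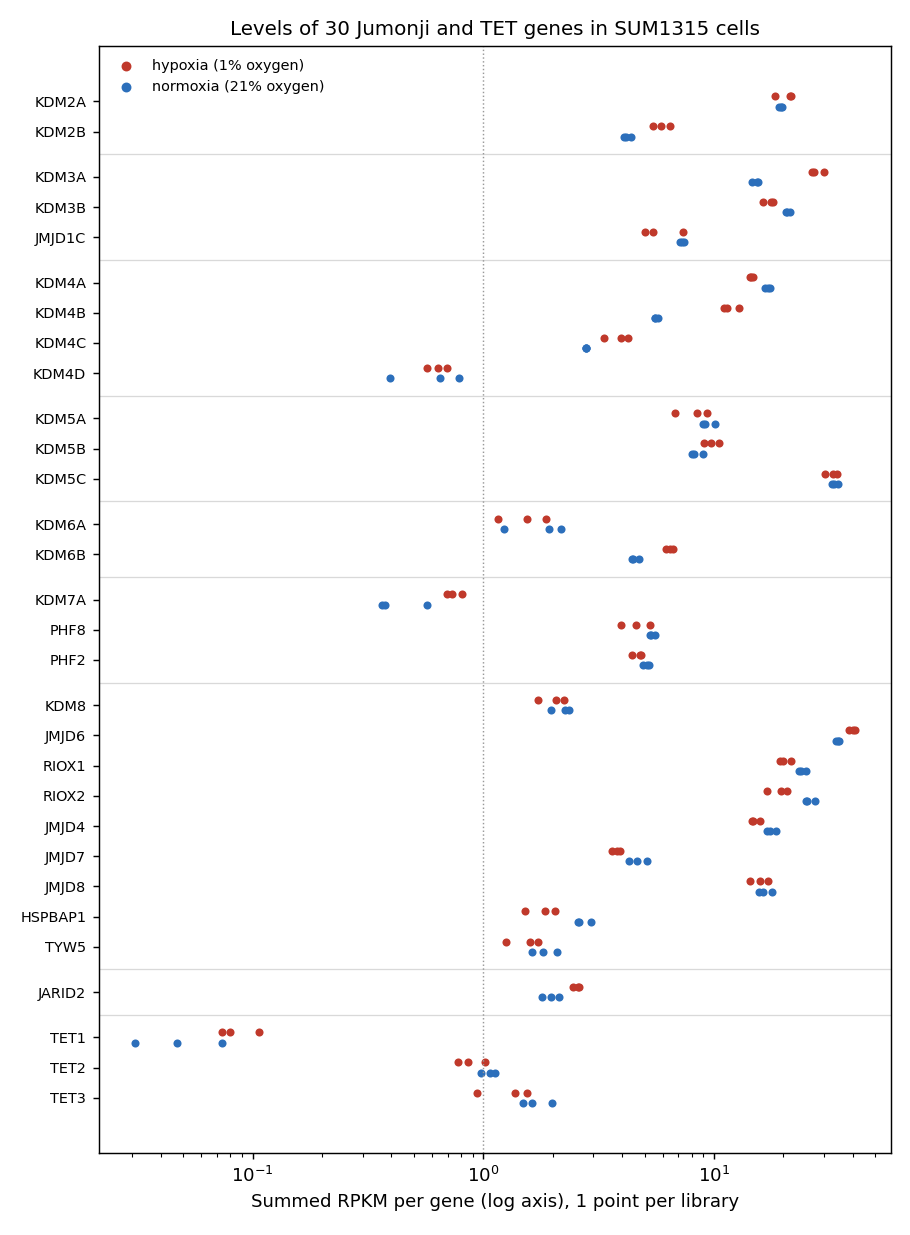
Level of each of the 30 genes as RPKM summed over transcripts (log axis), with 1 point for each of 3 hypoxic and 3 normoxic libraries and genes grouped by subfamily. KDM3A and KDM4B have all 3 hypoxic points well above the normoxic ones, KDM3B and KDM4A have them slightly below, and TET1 lies far under the dotted line at 1 RPKM.

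A gene was tested where it had more than 1 RPKM in at least 3 libraries, with limma across all 11884 such genes on log2(RPKM + 1) and Benjamini-Hochberg adjustment at 0.05. Of the 27 genes tested, 7 rose in hypoxia, 7 fell and 13 were not called. Over all tested genes 12.4% rose and 24.4% fell, 36.8% in all, and among those called the share that fell was 66.2%, which became 41.3% with median-of-ratios scaling, 42.7% with upper-quartile scaling and 78.1% with libraries rescaled to equal sums. Under those scalings the tested Jumonji and TET genes that rose and fell numbered 8 and 2, again 8 and 2, and 5 and 7. The median log2 fold change was -0.13 over the 27 genes and -0.08 over all tested genes. KDM3A and KDM4B were the members past a 1.5-fold rise on the log2(RPKM + 1) scale, where 3.04% of all tested genes stood, and no member was past a 1.5-fold fall, where 0.539% stood. The hypoxic libraries all lay above the normoxic ones for 10 of the 30 genes and all below for 9. Among the 27 tested genes these numbers were 8 and 9, against 16.4% and 35.6% of all tested genes, while 52.0% of all tested genes had separate groups in either direction. KDM4D, KDM7A and TET1 did not pass the filter on low values. Hypoxia replicate 2 was the lowest of the hypoxic libraries for 16 of the 30 genes. The same count was not made over all tested genes, so this is not a trait shown for these genes.

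**Figure D2:**
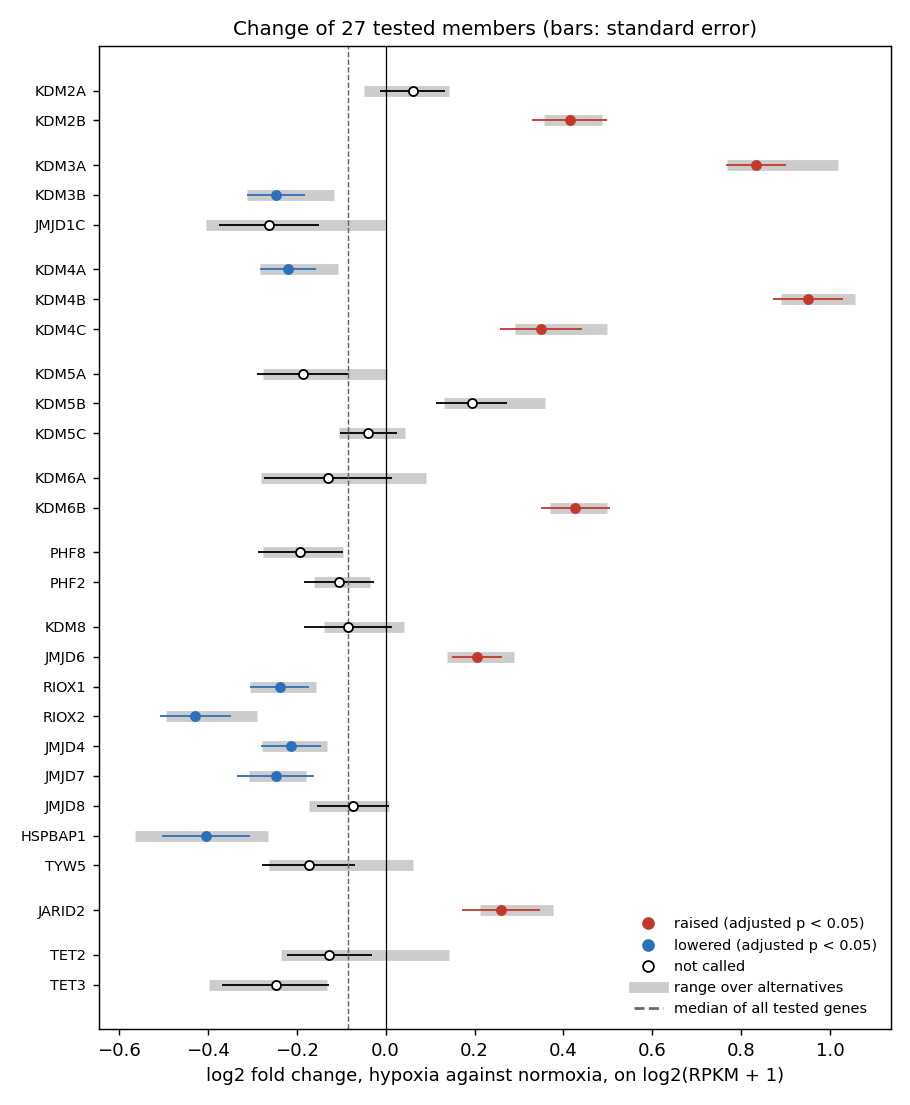
Fold change on log2(RPKM + 1), hypoxia against normoxia, of the 27 tested genes with its standard error; filled points passed an adjusted p of 0.05, grey bars give the range over the alternative settings and the dashed line the median of all tested genes (-0.08). KDM3A (0.83) and KDM4B (0.95) stand apart on the right, and RIOX2 (-0.43) and HSPBAP1 (-0.40) lie farthest left.

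The KDM3 enzymes remove mono- and dimethyl marks from lysine 9 of histone H3, a mark of silent chromatin. KDM3A (ENSG00000115548, chr2:86440647-86492716, plus strand, GRCh38) had 29.9, 26.7 and 27.1 RPKM in hypoxia, against 15.4, 14.7 and 15.5 RPKM in normoxia. Every hypoxic library lay above every normoxic one, and the hypoxic mean was 1.83 times the normoxic one (27.9 ± 1.73 RPKM in hypoxia and 15.2 ± 0.472 RPKM in normoxia, SD, n = 3 each, as for all values with ±). The log2 fold change was 0.83 (SE 0.07; adjusted p = 9.19e-06), between 0.77 and 1.02 over the alternative settings. KDM3B (ENSG00000120733, chr5:138352596-138437028, plus strand), which has the same substrates, fell, with 18.1, 16.4 and 17.8 RPKM in hypoxia against 21.3, 20.6 and 20.5 RPKM in normoxia. Its hypoxic libraries were all below the normoxic ones (log2 fold change -0.25, SE 0.07; adjusted p = 0.0141). That call ended with median-of-ratios scaling (adjusted p = 0.0766), upper-quartile scaling (0.0744), removal of trends on GC content and length (0.0588), without normoxia replicate 1 (0.0683) and without normoxia replicate 2 (0.0535). JMJD1C, a relative whose demethylase activity is debated, had 7.36, 5.00 and 5.46 RPKM in hypoxia and 7.24, 7.38 and 7.10 RPKM in normoxia. It was not called (log2 fold change -0.26, adjusted p = 0.0876). Hypoxia replicate 1 lay among the normoxic libraries, and without it the log2 fold change was -0.40 (adjusted p = 0.00632). KDM3A accounted for 54.5 ± 0.932% of the summed KDM3 RPKM in hypoxia and 35.2 ± 0.824% in normoxia.

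The KDM4 enzymes act on trimethylated lysine 9 and lysine 36 of histone H3. KDM4B (ENSG00000127663, chr19:4969113-5153595, plus strand) had 11.4, 11.1 and 12.9 RPKM in hypoxia, against 5.54, 5.56 and 5.73 RPKM in normoxia. The hypoxic mean was 2.10 times the normoxic one (11.8 ± 0.950 RPKM in hypoxia and 5.61 ± 0.107 RPKM in normoxia) and the groups were well apart. Its log2 fold change of 0.95 (SE 0.08; adjusted p = 1.11e-05) was the largest rise of the 27 genes. KDM4C, a close relative with the same Tudor and PHD reader domains, rose with 4.25, 3.35 and 3.96 RPKM in hypoxia against 2.79, 2.80 and 2.79 RPKM in normoxia. Its log2 fold change was 0.35 (SE 0.09; adjusted p = 0.0138), and the call ended only when no filter on low values was used (0.0646). KDM4A (ENSG00000066135, chr1:43650158-43705515, plus strand), the most abundant of the subfamily, fell, with 14.4, 14.7 and 14.4 RPKM in hypoxia against 16.6, 17.5 and 17.1 RPKM in normoxia. Its log2 fold change was -0.22 (SE 0.06; adjusted p = 0.0204). The call ended with median-of-ratios scaling (0.116), upper-quartile scaling (0.104), removal of GC and length trends (0.146) and without normoxia replicate 1 (0.0572), 2 (0.0972) or 3 (0.0776). An unnamed same-strand gene, ENSG00000284989, shares 40.2% of the exon bases of KDM4A, at a mean of 0.0253 RPKM. KDM4D, which lacks those reader domains, stayed under the filter at 0.634 ± 0.0628 RPKM in hypoxia and 0.609 ± 0.199 RPKM in normoxia.

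Within each library, the ratio of KDM3A to KDM3B was 1.65, 1.63 and 1.53 in hypoxia and 0.725, 0.711 and 0.758 in normoxia. KDM3A was thus above KDM3B in every hypoxic library and below it in every normoxic one. The ratio of KDM4B to KDM4A was 0.795, 0.751 and 0.893 in hypoxia and 0.334, 0.318 and 0.335 in normoxia, so KDM4A stayed the higher of the pair throughout. These ratios do not depend on how libraries are scaled. On the log2 scale they differed by 1.13 and 1.30 between hypoxia and normoxia. In 2-sided exact permutation tests over the 6 libraries both gave p = 0.1, the smallest value that 3 against 3 libraries allow, and 0.15 after Benjamini-Hochberg adjustment over 6 ratios. KDM2B to KDM2A (a log2 difference of 0.43) and KDM5B to KDM5A (0.42) also gave exact p = 0.1 and an adjusted 0.15. KDM6B to KDM6A (0.71; exact p = 0.2) and TET3 to TET2 (-0.17; exact p = 0.4) overlapped between the groups.

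**Figure D3:**
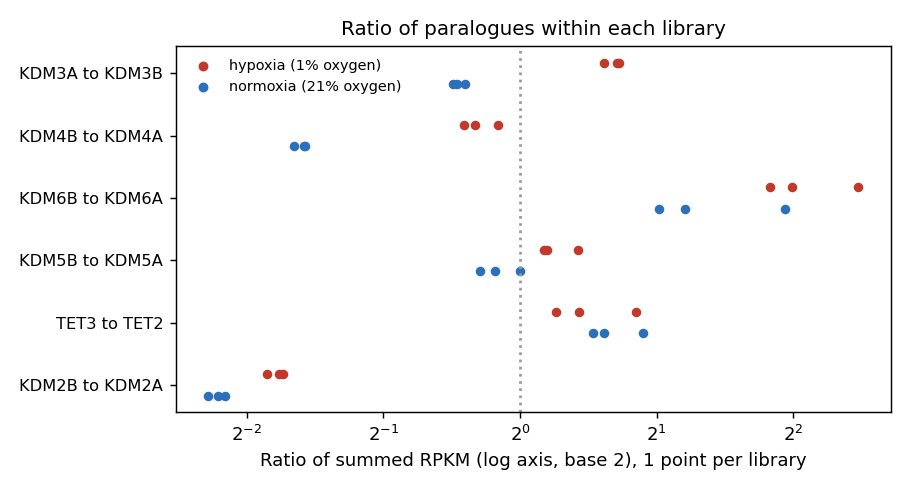
Ratio of the summed RPKM of 2 paralogues within each library (log axis, base 2), with 1 point for each hypoxic and normoxic library and a dotted line where both genes are equal. The KDM3A to KDM3B points lie right of the line in hypoxia (1.53 to 1.65) and left of it in normoxia (0.711 to 0.758).

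KDM2A and KDM2B demethylate lysine 36 of histone H3 and bind unmethylated CpG islands through a zinc finger, and KDM2B also brings a variant Polycomb complex to these islands. KDM2B (ENSG00000089094, chr12:121429097-121581015, minus strand) rose, with 5.92, 5.43 and 6.45 RPKM in hypoxia against 4.07, 4.37 and 4.15 RPKM in normoxia. The groups did not overlap, and the log2 fold change was 0.41 (SE 0.08; adjusted p = 0.00419). KDM2A was not called, at 20.4 ± 1.75 RPKM in hypoxia and 19.5 ± 0.286 RPKM in normoxia (log2 fold change 0.06, adjusted p = 0.533). It passed the threshold only with GC and length trends removed (log2 fold change 0.14, adjusted p = 0.0366). Both genes have long transcripts that encode the JmjC domain and short ones from internal starts, and short forms without that domain are known for both proteins.

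The transcripts of KDM2B took different shares of its RPKM in hypoxia and normoxia, as described here without a test of the shares. Its full-length transcript KDM2B-202 (ENST00000377071, 1336 codons) had 2.85, 2.73 and 2.74 RPKM in hypoxia, against 1.52, 1.22 and 1.20 RPKM in normoxia. The short transcript KDM2B-215 (ENST00000542973, 704 codons) starts 71278 bases downstream and had 1.53, 1.61 and 1.68 RPKM in hypoxia, against 1.80, 2.10 and 2.02 RPKM in normoxia. The groups were separate for both transcripts, in opposite directions. Across 28538 transcripts tested in the same way, KDM2B-202 rose (log2 fold change 0.71, SE 0.11; adjusted p = 0.0166), and KDM2B-215 was not called (-0.19, SE 0.11; adjusted p = 0.325). Among other settings, the call of KDM2B-202 ended with no filter (0.0565) and without normoxia replicate 1 (0.052), 2 (0.0842) or 3 (0.086). The ratio of the long to the short transcript was 1.73 ± 0.123 in hypoxia and 0.674 ± 0.151 in normoxia. KDM2B-202 made up 46.9 ± 4.04% of the gene's RPKM in hypoxia and 31.4 ± 5.20% in normoxia, and KDM2B-215 made up 27.1 ± 2.21% in hypoxia and 47.0 ± 2.50% in normoxia. Most transcript values are estimates that split shared reads, and 278 to 664 reads stand behind KDM2B-202 in a library. For KDM2A the ratio of the long KDM2A-210 to the short KDM2A-212 (723 codons) was 0.607, 0.945 and 0.547 in hypoxia and 0.475, 0.565 and 0.549 in normoxia, with overlapping groups. KDM2A-212 held the largest mean share of that gene in both groups, 31.0 ± 3.27% in hypoxia and 39.1 ± 2.40% in normoxia, with all hypoxic libraries below.

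Of 270 transcripts of the 30 genes, 53 from 24 genes were tested, and 5 rose, 1 fell and 47 were not called. Over all tested transcripts 3.33% rose and 2.85% fell. Besides KDM2B-202, the transcripts that rose were KDM3A-201, KDM3A-202, KDM4B-211 and KDM4B-201. KDM3A-201, at 19.4 ± 1.22 RPKM in hypoxia and 10.6 ± 0.114 RPKM in normoxia, and KDM3A-202, at 5.01 ± 0.424 RPKM in hypoxia and 2.15 ± 0.169 RPKM in normoxia, both encode 1321 codons from different annotated starts. Their log2 fold changes were 0.82 (SE 0.08; adjusted p = 0.00169) and 0.93 (SE 0.11; adjusted p = 0.00457). KDM3A-201 held 69.7 ± 0.392% of the gene's RPKM in hypoxia and 69.5 ± 2.57% in normoxia, with overlapping groups. KDM3A-202 held 18.0 ± 2.02% in hypoxia and 14.1 ± 0.722% in normoxia, with all hypoxic libraries above, and KDM3A-203 held 6.26 ± 0.668% in hypoxia and 8.60 ± 1.13% in normoxia, with all below. KDM4B-211 (1130 codons) had 6.69 ± 0.472 RPKM in hypoxia and 3.27 ± 0.401 RPKM in normoxia (log2 fold change 0.85, adjusted p = 0.00699, and 0.067 with no filter). KDM4B-201 (1096 codons) had 1.59 ± 0.286 RPKM in hypoxia and 0.413 ± 0.0396 RPKM in normoxia (0.87, adjusted p = 0.0128). It passed the filter only through its hypoxic libraries, where it was high. Its p-value and its place among the 5 are therefore no support for a rise. Its call ended with no filter (0.0721) and without normoxia replicate 1 (0.0623), 2 (0.0649) or 3 (0.069). The transcript that fell was RIOX2-202, at 11.1 ± 1.38 RPKM in hypoxia and 15.6 ± 1.00 RPKM in normoxia (-0.47, adjusted p = 0.043). Its call ended without any one of 5 libraries, at 0.0652 without hypoxia replicate 3 to 0.169 without normoxia replicate 3, and held without hypoxia replicate 2. It also ended with median-of-ratios scaling (0.0781), upper-quartile scaling (0.0714) and no filter (0.268).

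**Figure D4:**
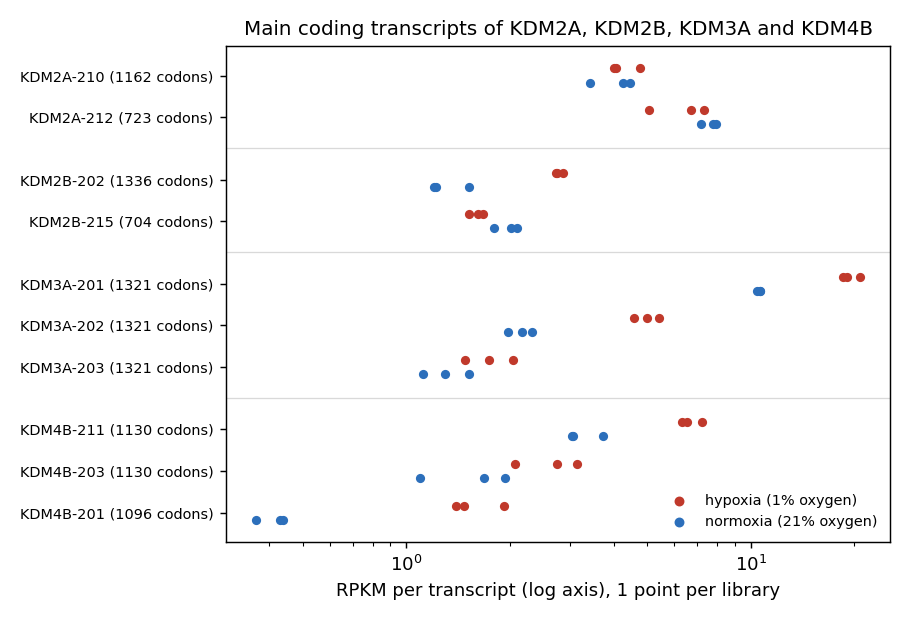
RPKM (log axis) of the main coding transcripts of KDM2A, KDM2B, KDM3A and KDM4B, with 1 point for each hypoxic and normoxic library and the number of codons beside each name. KDM2B-202 has its hypoxic points at 2.73 to 2.85 and its normoxic ones at 1.20 to 1.52, while the order is the other way round for KDM2B-215.

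Lysine 27 of histone H3, the Polycomb mark, is demethylated by KDM6A and KDM6B. KDM6B, known as an inducible gene in many cell types, rose, with 6.17, 6.43 and 6.67 RPKM in hypoxia against 4.46, 4.72 and 4.39 RPKM in normoxia. The groups did not overlap, and the log2 fold change was 0.43 (SE 0.08; adjusted p = 0.00223). KDM6A, a subunit of histone methyltransferase complexes, was not called, with 1.55, 1.16 and 1.88 RPKM in hypoxia and 1.93, 1.23 and 2.17 RPKM in normoxia. Its libraries varied more within each group than the group means differed. JARID2, a Jumonji protein without enzyme activity that recruits Polycomb repressive complex 2, had 2.58, 2.61 and 2.44 RPKM in hypoxia against 1.80, 2.13 and 1.97 RPKM in normoxia. Its groups were separate and it rose (log2 fold change 0.26, SE 0.09; adjusted p = 0.0384). That call ended with libraries rescaled to equal sums (0.0748), on leaving out hypoxia replicate 1 (0.0644) or 2 (0.076), and on leaving out normoxia replicate 1 (0.149), 2 (0.0629) or 3 (0.0992).

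No gene of the KDM5 subfamily, which demethylates lysine 4 of histone H3 at active promoters, was called. KDM5C had 32.9, 30.4 and 34.3 RPKM in hypoxia and 33.2, 34.5 and 32.5 RPKM in normoxia, with overlapping groups (log2 fold change -0.04, SE 0.06; adjusted p = 0.656). KDM5B, amplified or overexpressed in some breast cancers, had 10.5, 9.08 and 9.71 RPKM in hypoxia and 8.04, 8.99 and 8.20 RPKM in normoxia, with separate groups. Its log2 fold change of 0.19 (SE 0.08) had an adjusted p of 0.0777. It passed with median-of-ratios scaling (0.27, adjusted p = 0.0265), upper-quartile scaling (0.27, adjusted p = 0.0344), GC and length trends removed (0.36, adjusted p = 0.00122) and without hypoxia replicate 2 (0.24, adjusted p = 0.0432). KDM5A had 9.34, 6.76 and 8.48 RPKM in hypoxia and 9.11, 8.99 and 10.1 RPKM in normoxia (-0.19, adjusted p = 0.178). In the KDM7 subfamily, which joins a PHD reader to a demethylase of lysine 9 and related marks, PHF8 had 4.62 ± 0.654 RPKM in hypoxia and 5.39 ± 0.138 RPKM in normoxia (-0.19, adjusted p = 0.132). Without hypoxia replicate 1, PHF8 passed (-0.28, adjusted p = 0.0394). PHF2 had 4.67 ± 0.210 RPKM in hypoxia and 5.09 ± 0.137 RPKM in normoxia (-0.11, adjusted p = 0.307). KDM7A was too low to be tested, with 0.698, 0.810 and 0.729 RPKM in hypoxia and 0.377, 0.365 and 0.572 RPKM in normoxia. Its groups were separate, and without the filter its log2 fold change was 0.28 (adjusted p = 0.0685).

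Among the 9 Jumonji proteins that hydroxylate proteins or transfer RNA or resemble such enzymes, 1 rose, 5 fell and 3 were not called. Over all tested genes 12.4% rose and 24.4% fell. With median-of-ratios scaling 1 rose and RIOX2 and HSPBAP1 were the 2 that fell, where 17.0% of all tested genes rose and 11.97% fell. Without normoxia replicate 1, 2 or 3, those that fell numbered 2, 2 and 3 and none rose. In these settings 14.7%, 13.6% and 12.8% of all tested genes fell and 8.98%, 9.29% and 8.64% rose. Without hypoxia replicate 1 or 2, 3 fell, where 24.1% and 23.8% of all tested genes fell. RIOX1 and RIOX2 are nucleolar enzymes that hydroxylate histidines of ribosomal proteins. RIOX2 (ENSG00000170854, chr3:97941818-97972457, minus strand) had 19.5, 20.8 and 17.0 RPKM in hypoxia against 25.2, 25.1 and 27.5 RPKM in normoxia. All hypoxic libraries lay below the normoxic ones, and the log2 fold change was -0.43 (SE 0.08; adjusted p = 0.00253), past the threshold in every alternative. CRYBG3, on the other strand, shares 27.6% of the exon bases of RIOX2, at a mean of 2.99 RPKM. The library kit does not mark strand, so reads of such a pair cannot be told apart. RIOX1, a gene of 1 transcript in the table, fell, with 19.3, 20.0 and 21.5 RPKM in hypoxia against 23.8, 25.0 and 23.5 RPKM in normoxia (-0.24, SE 0.07; adjusted p = 0.0167). Scaling by median of ratios (0.0892) or by upper quartile (0.078) ended its call, as did leaving out normoxia replicate 1 (0.0543) or 2 (0.0858).

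JMJD6, which hydroxylates lysines of splicing factors, rose, with 38.4, 40.1 and 40.7 RPKM in hypoxia against 35.0, 33.7 and 34.3 RPKM in normoxia. The groups were separate and close (log2 fold change 0.21, SE 0.06; adjusted p = 0.0172). The call ended with libraries rescaled to equal sums (0.0531) and without normoxia replicate 1 (0.0554), 2 (0.0845) or 3 (0.0669). HSPBAP1, named for its binding to a small heat shock protein, fell, with 1.85, 2.05 and 1.52 RPKM in hypoxia against 2.58, 2.60 and 2.93 RPKM in normoxia (-0.40, SE 0.10; adjusted p = 0.010). Its call ended with no filter (0.0651). JMJD4, which hydroxylates a translation termination factor, had 15.1 ± 0.712 RPKM in hypoxia and 17.6 ± 0.777 RPKM in normoxia (-0.21, adjusted p = 0.0314). SNAP47, on the other strand, shares 53.8% of the exon bases of JMJD4, at a mean of 14.7 RPKM. JMJD7, which hydroxylates lysines of GTPases, had 3.78 ± 0.147 RPKM in hypoxia and 4.68 ± 0.430 RPKM in normoxia (-0.25, adjusted p = 0.0442). The same-strand readthrough gene JMJD7-PLA2G4B shares 80.1% of the exon bases of JMJD7, at a mean of 2.49 RPKM. JMJD4 and JMJD7 both fell with groups apart. When single libraries were left out, the call of JMJD4 held without hypoxia replicate 3 only (up to 0.143 without normoxia replicate 1). That of JMJD7 did likewise (up to 0.188 without normoxia replicate 2). With median-of-ratios scaling, adjusted p was 0.164 for JMJD4 and 0.141 for JMJD7.

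KDM8, JMJD8 and TYW5 were not called. KDM8, an enzyme first described as a histone demethylase, had 2.01 ± 0.259 RPKM in hypoxia and 2.19 ± 0.202 RPKM in normoxia. JMJD8, a protein of the endoplasmic reticulum, had 15.7 ± 1.42 RPKM in hypoxia and 16.6 ± 1.12 RPKM in normoxia, and passed as lower only with GC and length trends removed (-0.17, adjusted p = 0.045). STUB1, on the other strand, shares 37.4% of the exon bases of JMJD8, at a mean of 51.8 RPKM. TYW5, which hydroxylates a modified guanosine of phenylalanine transfer RNA, had 1.53 ± 0.244 RPKM in hypoxia and 1.85 ± 0.229 RPKM in normoxia. Transcripts annotated as protein-coding held 12.4% of the TYW5 RPKM in hypoxia and 17.3% in normoxia.

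The TET enzymes, which oxidise 5-methylcytosine and so start its removal, had the lowest level per gene, with all 3 members under 2 RPKM in every library. TET3 had 1.38, 0.935 and 1.55 RPKM in hypoxia and 1.63, 1.99 and 1.49 RPKM in normoxia (log2 fold change -0.25, SE 0.12; adjusted p = 0.125). TET2 had 1.02, 0.781 and 0.860 RPKM in hypoxia and 1.13, 1.07 and 0.974 RPKM in normoxia (-0.13, adjusted p = 0.311). For both genes the groups overlapped. TET1 had 0.0739, 0.0801 and 0.106 RPKM in hypoxia and 0.0470, 0.0737 and 0.0309 RPKM in normoxia, from 14 to 43 reads a library, and was not tested. At this depth no difference in TET2 or TET3 was detectable beyond the spread between libraries.

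Summed by substrate, the KDM3 genes had 55.3, 48.1 and 50.3 RPKM in hypoxia against 44.0, 42.7 and 43.1 RPKM in normoxia. The KDM4 genes had 30.6, 29.8 and 31.9 RPKM in hypoxia against 25.7, 26.2 and 26.3 RPKM in normoxia, and the KDM6 genes had 7.72, 7.59 and 8.55 RPKM in hypoxia against 6.38, 5.95 and 6.56 RPKM in normoxia. In these 3 sums every hypoxic library lay above every normoxic one. The 9 protein and transfer RNA hydroxylases together had 116, 121 and 121 RPKM in hypoxia against 132, 128 and 130 RPKM in normoxia, with all hypoxic libraries below. On the log2 scale their sum differed by -0.13 between hypoxia and normoxia, and by -0.0418 with median-of-ratios scaling. The sums of KDM2, KDM5, KDM7 and TET genes overlapped between the groups. As a share of the 30 genes, KDM3 held 17.0 ± 0.954% in hypoxia and 14.6 ± 0.163% in normoxia, and the hydroxylases held 39.6 ± 1.87% in hypoxia and 43.9 ± 0.437% in normoxia. The shares of KDM2 (8.76 ± 0.463% in hypoxia and 8.003 ± 0.0882% in normoxia, all hypoxic libraries above), KDM7 (3.33 ± 0.184% in hypoxia and 3.69 ± 0.0526% in normoxia, all below) and TET genes (0.7498 ± 0.112% in hypoxia and 0.950 ± 0.108% in normoxia, all below) were also separate. No test was made on these sums and shares.

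**Figure D5:**
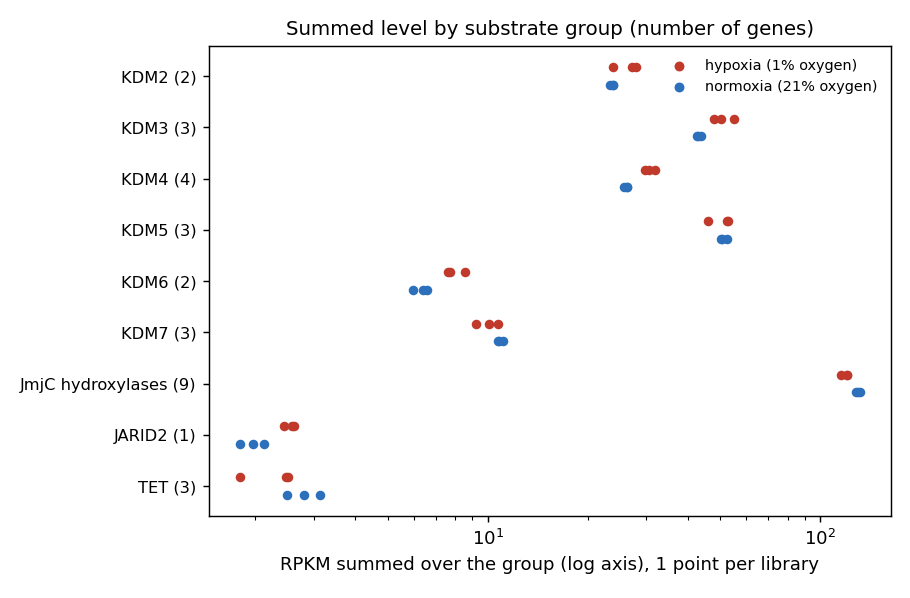
RPKM summed over the genes of each substrate group (log axis), with 1 point for each hypoxic and normoxic library and the number of genes in brackets. Hypoxic points lie above normoxic ones for KDM3, KDM4, KDM6 and JARID2 and below for the JmjC hydroxylases (116 to 121 against 128 to 132).

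Listed enzymes that write methyl marks on histones were counted in the same fit. Of 26 listed methyltransferases and Polycomb subunits 24 were tested, 2 rose and 10 fell, with a median log2 fold change of -0.22, where 12.4% of all tested genes rose and 24.4% fell. SMYD2, a methyltransferase of lysine 36, rose with 16.1 ± 0.693 RPKM in hypoxia and 12.2 ± 0.866 RPKM in normoxia (0.38, adjusted p = 0.00325). DOT1L, the methyltransferase of lysine 79, rose with 11.3 ± 0.521 RPKM in hypoxia and 8.04 ± 0.620 RPKM in normoxia (0.44, adjusted p = 0.00203). Lysine 79 is not among the substrates named above for the demethylases. Among those that fell was EZH2, which writes the lysine 27 mark that KDM6B removes, at 24.3 ± 4.51 RPKM in hypoxia and 32.9 ± 1.77 RPKM in normoxia (-0.44, adjusted p = 0.0116, and 0.132 with no filter). The number that fell was 3 with median-of-ratios scaling, where 11.97% of all tested genes fell. It was 4, 2 and 3 without normoxia replicates 1, 2 and 3, where 14.7%, 13.6% and 12.8% of all tested genes fell. Of 5 listed genes linked to the writing or removal of DNA methylation, 3 fell. With median-of-ratios scaling or without hypoxia replicate 2 or normoxia replicate 1, 2 or 3, 1 did. DNMT1, the maintenance methyltransferase, fell in all of these, at 12.4 ± 0.791 RPKM in hypoxia and 17.2 ± 1.24 RPKM in normoxia (-0.44, adjusted p = 0.00202). KDM1A, a lysine demethylase that uses FAD in place of 2-oxoglutarate, also fell (-0.33, adjusted p = 0.00592, and 0.0555 with no filter).

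Of 31 other 2-oxoglutarate oxygenases 27 were tested, 8 rose and 4 fell, with a median log2 fold change of -0.05, where 12.4% of all tested genes rose and 24.4% fell. The rise was largest for PLOD2, a lysyl hydroxylase of collagen, at 10.7 ± 0.895 RPKM in hypoxia and 1.22 ± 0.144 RPKM in normoxia (2.39, adjusted p = 1.77e-08). P4HA2, a prolyl hydroxylase of collagen, had 43.4 ± 2.47 RPKM in hypoxia and 11.6 ± 0.352 RPKM in normoxia (1.81, adjusted p = 1.02e-08). Both exceeded the changes of KDM3A and KDM4B. OGFOD1, which hydroxylates a ribosomal protein, fell, with 31.9 ± 2.13 RPKM in hypoxia and 42.9 ± 0.264 RPKM in normoxia (-0.42, adjusted p = 0.0008). The number that fell was 1 without normoxia replicate 1, 2 or 3. Of 10 tested genes of 2-oxoglutarate metabolism, 3 rose and 4 fell, against 12.4% and 24.4% of all tested genes. Without normoxia replicate 1 or 2 the numbers were 1 and 3, and without normoxia replicate 3 they were 2 and 3. Without normoxia replicates 1, 2 and 3, 8.98%, 9.29% and 8.64% of all tested genes rose and 14.7%, 13.6% and 12.8% fell. GPT2, a mitochondrial transaminase that yields 2-oxoglutarate, rose (0.51, adjusted p = 0.000552).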

How the data were processed

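RNA of 6 samples of SUM1315 cells was analysed, 3 at 1% and 3 at 21% oxygen. The authors deposited RPKM per Ensembl transcript (165956 transcripts, 6 columns), matched to samples by the label descriptions. The unit was inferred from the values, since the table does not name it. Per the submitters' processing notes, Trimmomatic, HISAT2, SAMtools and Partek were used with builds GRCh38 and hg38, with no versions named. Per the labels' protocols, the library kit was one that does not mark strand.

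Transcripts were joined to GENCODE 29 (140004 matched, 84.4%) and summed for 26409 genes. The unmatched transcripts held 3.44% to 3.68% of the RPKM. The filter kept what exceeded 1 RPKM in 3 or more libraries, 11884 genes and 28538 transcripts, which were tested with limma (mean-variance trend, Benjamini-Hochberg, threshold 0.05) on log2(RPKM + 1), so fold changes of low genes are understated. Low values of genes with 1 transcript lay within 0.1 of whole multiples of one step in 79.0% to 80.2% of cases, which gave the depth; most values are estimates that split reads, so no count test was made. In pairs of replicates the mean chi-square per gene of estimated reads was 7.84 or more across 12850 genes averaging 50 or more reads, so no pair agreed within counting noise.

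The members and gene lists were chosen with earlier results of these data known. Named genes are all 30 members, their up to 4 most abundant transcripts, and up to 2 raised and 2 lowered genes of each other list, of which some are not reported here. Paralogue ratios were compared by exact permutation tests. Tested on simulated data of 11884 genes for hypoxia and normoxia, the fit recovered all of 50 genes changed by log2 1 and of 50 changed by -1, and 98% and 94% of 50 changed by 0.5 and -0.5, with 3.92% of calls false. The changed genes were drawn from those at higher levels, with equal noise in both groups and fewer genes changed than were called here. These rates therefore do not carry over to low genes or smaller changes. Alternatives were 3 other scalings, a pseudocount of 0.1, no filter or one at 5 RPKM, a block on the replicate number, omission of each library, protein-coding transcripts only, and removal of loess trends (span 0.5) on GC content and length, with and without the block. The fits ran in R 4.3.3 with limma 3.58.1. Tables and figures were made in Python 3.11.15, using matplotlib 3.10.9, pandas 2.3.3 and numpy 2.4.6.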

Additional observations from a re-analysis of the deposited data

How the results depend on the processing

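The calls of KDM3A, KDM4B, KDM2B, KDM6B and RIOX2 held in all 16 alternatives, and those of the other 9 called genes ended in at least 1. KDM2B and KDM6B passed the filter at 5 RPKM only through their hypoxic libraries, so that alternative is no support for their rise. The number of Jumonji and TET genes that fell (7) became 2 with median-of-ratios or upper-quartile scaling, 4 with no filter, 4 with the replicate block, 4 with GC and length trends removed together with the replicate block, and 2 to 7 without single libraries. The number that rose (7) stayed within 1.5 times in every alternative. Methyltransferases that fell (10) became 3 with median-of-ratios or upper-quartile scaling, 1 with no filter, 5 with GC and length trends removed, also 5 with the replicate block added to that, and 2 to 10 without single libraries. Other 2-oxoglutarate oxygenases that fell (4) became 9 with libraries rescaled to equal sums, 1 with median-of-ratios or upper-quartile scaling or no filter, 2 with the replicate block, and 1 to 4 without single libraries. Among all tested genes the share that fell, 24.4% in the main fit, also moved between settings. It was 11.97% under median-of-ratios scaling, 12.3% under upper-quartile scaling, 35.6% with equal sums and 5.18% of the unfiltered genes. Removal of GC and length trends gave 17.3%, or 16.1% with the block added, and the block alone gave 22.4%. Omitting single libraries gave 12.8% to 24.1%. Falls in these lists are to be read against those shares. Transcripts that rose (5) became 2 with a filter at 5 RPKM or none, 3 with the replicate block and 3 to 6 without single libraries. Transcripts that fell (1) became 3 with a filter at 5 RPKM, 4 with equal sums, 0 with median-of-ratios or upper-quartile scaling, no filter or the replicate block, and 0 to 1 without single libraries. The cause of these shifts was not tested.

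With median-of-ratios scaling the log2 difference of the summed levels, hypoxia against normoxia, was 0.33 for KDM3, 0.33 for KDM4, 0.0625 for KDM5, 0.42 for KDM6, -0.0400 for KDM7, -0.0418 for the hydroxylases and 0.11 for all 30 genes. Signs turned for genes that were not called. KDM2A became -0.0046 with equal sums and -0.0479 with protein-coding transcripts only, and KDM8 became 0.0412 with protein-coding transcripts only. KDM5C became 0.0439 with median-of-ratios scaling, 0.0385 with upper-quartile scaling and -0.0772 to 0.0075 without single libraries (0.0075 without hypoxia replicate 2), and JMJD8 became 0.0066 and 0.0013 with these scalings. With GC and length trends removed, with or without the replicate block, KDM5A became 0.0022, KDM5C 0.00092, KDM6A 0.0903, TYW5 0.0612 and TET2 0.14.

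Deviations of same-numbered samples from their group means correlated at 0.0901, 0.0301 and -0.2267, and those of differently numbered samples at -0.2516 to 0.2044. No pairing by number was seen, though so few samples cannot exclude one. With the replicate block, the calls of KDM4A (adjusted p = 0.0507), JMJD4 (0.0613), JMJD7 (0.0703) and JARID2 (0.0627) ended, and no gene gained one. With GC and length trends removed together with the replicate block, those of HSPBAP1 (0.0565), KDM3B (0.105) and KDM4A (0.152) ended. Among transcripts, the replicate block ended the calls of KDM2B-202 (0.0654), KDM4B-201 (0.0514) and RIOX2-202 (0.109). Per library, 1 read over 2 kb equals 0.00982 to 0.0114 RPKM, which limits precision only for TET1 and similarly low genes.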
